A study of Mus musculus with 9 samples.

Results

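The Rab genes encode small GTPases of the Ras superfamily that direct the traffic of membrane inside cells. They were taken as every gene of the deposited expression table whose single symbol was Rab followed by a number and at most a letter and a digit. This gave 59 of the 18193 genes measured, each read from its brightest probe set by the mean of the 9 arrays.

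Each Rab protein cycles between a GDP-bound form held in the cytosol and a GTP-bound form on a membrane. Guanine nucleotide exchange factors (GEFs) load GTP, GTPase-activating proteins (GAPs) speed its hydrolysis, and effectors recognise the GTP-bound form to move, tether and fuse vesicles. In leukocytes Rab proteins serve phagosome maturation, antigen handling and the release of granules, for which Rab27a and Rab27b are the best known.

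The arrays profiled cells sorted from lungs of female 4get mice on the BALB/c background, aged 6 to 8 weeks, in which GFP reports transcription of the Il4 gene. Every mouse received 0.5 µg of recombinant IL-25 in 50 µL into the trachea on each of 4 days, so the series holds no untreated group. Collagenase released the cells, magnetic columns enriched those with CD11b, 4 donors made up a pool, 400000 cells were sorted for each sample and 50 ng of RNA was amplified. The T2M label (3 arrays) stands for cells gated as Gr-1mid, CD11b+, MHCIIlo, F4/80+, IL-5rα- and IL-4/GFP+. The eosinophil label (2 arrays) stands for Gr-1hi, CD11b+, MHCIIlo, F4/80-, IL-5rα+ and IL-4/GFP- cells. The neutrophil label (2 arrays) stands for Gr-1+, CD11b+, MHCIIlo, F4/80-, IL-5rα- and IL-4/GFP- cells, and the macrophage label (2 arrays) for Gr-1-, CD11b+, MHCII+, F4/80+, IL-5rα- and IL-4/GFP- cells. The replicates are pools, and the labels do not say whether replicate pools came from separate mice, so p-values measure the spread between these arrays, which may be partly technical.

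The labels and the marker genes did not match on several arrays, so the groups are called here by their labels only. All 9 measured eosinophil markers were highest in T2M, with a summed log2 level of 80.6 to 85.2 per array against 52.9 to 60.8 on the eosinophil-labelled arrays, 48.3 to 62.4 on the neutrophil-labelled arrays and 39.6 to 40.8 on the macrophage-labelled arrays. All 11 measured neutrophil markers were highest on the eosinophil-labelled arrays, with sums of 125.6 to 131.0 against 84.2 to 99.7 on the neutrophil-labelled arrays, 85.6 to 96.3 in T2M and 72.2 to 80.9 on the macrophage-labelled arrays. The 12 macrophage markers summed to 124.6 to 124.7 on the neutrophil-labelled arrays and to 108.2 to 110.1 on the macrophage-labelled arrays. Their sums were 108.9 to 114.9 in T2M and 101.0 to 104.6 on the eosinophil-labelled arrays. Of the 12, 6 were highest on the neutrophil-labelled arrays, 4 on the macrophage-labelled arrays and 2 in T2M. All 6 measured dendritic cell markers were highest on the macrophage-labelled arrays. Epithelial markers, 7 of 10 of them highest in T2M, summed to 80.3 to 87.1 there, 76.2 to 77.4 on the eosinophil-labelled, 67.2 to 77.7 on the neutrophil-labelled and 61.5 to 64.5 on the macrophage-labelled arrays. Endothelial and stromal markers, 7 of 8 of them highest in T2M, summed to 58.8 to 59.3, 49.4 to 52.5, 47.0 to 56.1 and 45.4 to 46.2 in the same order. The macrophage-labelled arrays correlated at r = 0.995 across genes, against 0.922 to 0.974 for replicates of the other labels, so the number of Rab genes called in each comparison and in the F-test is also given with them averaged as 1 sample. The actin 3′ probe set exceeded the 5′ one by 0.61 on T2M replicate 1 and by 0.54 on eosinophil-labelled replicate 1, against -0.10 to 0.03 on the other arrays. For Gapdh this excess was 3.43, 2.35 and 2.97 in T2M, against 1.02 and 1.198 on the macrophage-labelled arrays. It was 1.09 to 2.41 on the eosinophil- and neutrophil-labelled arrays. By Gapdh, every T2M array thus exceeded both macrophage-labelled arrays, so this difference runs with the label in that comparison. The part of these differences in the Rab results was not tested. In pooled cells, more cells of a type and more RNA per cell cannot be told apart.

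Of the 59 Rab genes, 50 reached log2 6 on at least 2 arrays, and 8 lay below the array median on all 9 arrays (Rab17, Rab25, Rab26, Rab33a, Rab39, Rab3c, Rab42 and Rab9b). By the best-known site of action of their proteins, 14 belong to the endoplasmic reticulum, Golgi and delivery to the surface, 19 to early and recycling endosomes, 11 to late endosomes and lysosomes and 11 to secretory granules and lysosome-related organelles, with 4 others. Levels are taken to be log2, since the base is not given in the sources used here. In limma's moderated F-test over the 4 labels, 17 Rab genes passed an adjusted p (Benjamini-Hochberg over all genes) under 0.05 and are termed called, which is 28.8% of them against 17.8% of all genes. A difference between a pair of labels was called for 22 Rab genes in at least 1 of the 6 comparisons, 37.3% against a background of 26.8%. Among genes with a mean of at least log2 6 these shares were 42.9% of 42 Rab genes and 38.5% of all, a narrower gap. With the macrophage-labelled arrays averaged as 1 sample the F-test called 6 Rab genes.

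**Figure D1:**
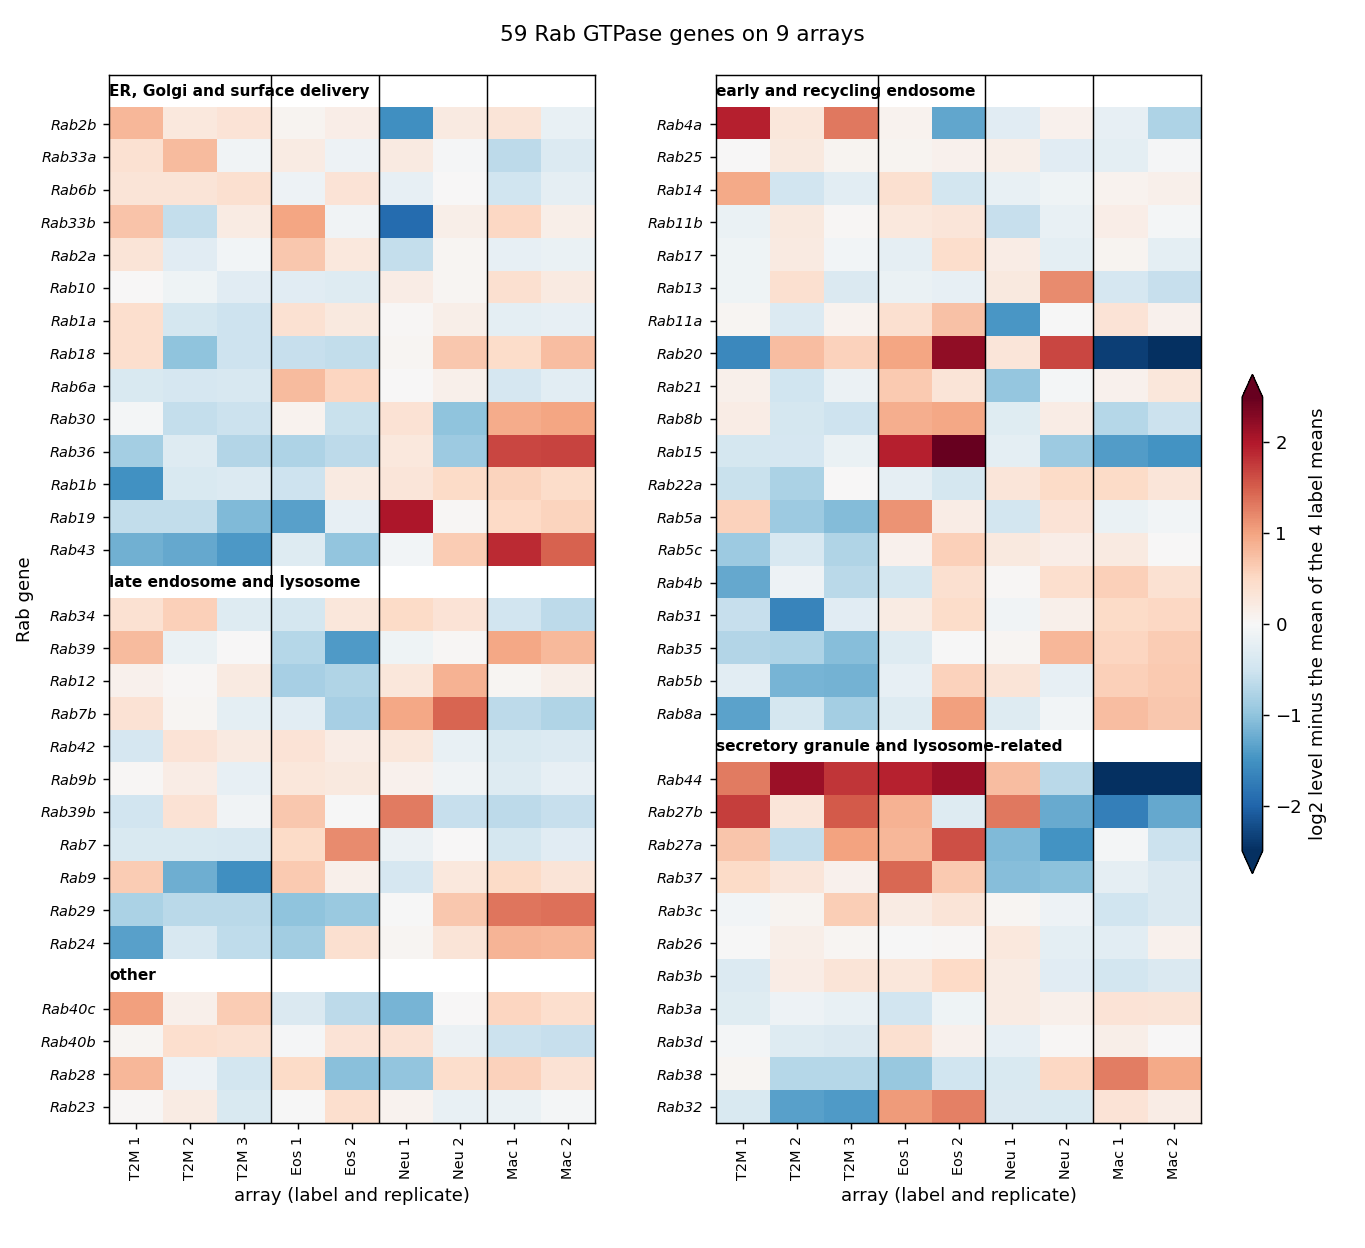
Level of each of the 59 Rab genes (rows, grouped by role) on each of the 9 arrays (columns), as the log2 level minus the mean of the 4 label means; colours are capped at 2.5 in each direction, which cuts short Rab44 on both macrophage-labelled arrays (Mac), Rab20 on Mac replicate 2 and Rab15 on eosinophil-labelled (Eos) replicate 2. Rab44 is low on both Mac arrays, Rab15 is high on both Eos arrays, and Rab43, Rab29 and Rab36 are high on both Mac arrays.

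Promoter windows from RefSeq (build GRCm38.p6, 250 bases before to 50 after a transcript start) matched 48 of the 59 Rab genes, in 60 windows. No window was matched for Rab18, Rab26, Rab27b, Rab2a, Rab30, Rab36, Rab37, Rab38, Rab44, Rab4a and Rab7b. Of the 7 genes called in at least 3 comparisons, 4 had a window, and of the windows given for each gene the one with the outermost start is shown, since these genes were called in many of the comparisons. Bases run 5′ to 3′ on the gene's strand. Capitals mark a match, on either strand, to one of 4 short motifs of myeloid factors, chosen after the levels were known. AGATAA was taken for GATA factors and GAGGAA for the factor PU.1. TTGCNNAA was taken for C/EBP factors and CCGGAA for other members of the ETS family.
Rab15, chr12:76822475-76822774 (minus strand): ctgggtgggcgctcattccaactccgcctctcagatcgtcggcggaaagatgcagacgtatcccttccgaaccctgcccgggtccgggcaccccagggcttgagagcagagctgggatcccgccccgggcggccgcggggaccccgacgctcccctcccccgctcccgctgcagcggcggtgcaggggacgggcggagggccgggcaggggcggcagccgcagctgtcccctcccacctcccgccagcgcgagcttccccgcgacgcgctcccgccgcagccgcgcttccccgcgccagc
Rab29, chr1:131867027-131867326 (plus strand): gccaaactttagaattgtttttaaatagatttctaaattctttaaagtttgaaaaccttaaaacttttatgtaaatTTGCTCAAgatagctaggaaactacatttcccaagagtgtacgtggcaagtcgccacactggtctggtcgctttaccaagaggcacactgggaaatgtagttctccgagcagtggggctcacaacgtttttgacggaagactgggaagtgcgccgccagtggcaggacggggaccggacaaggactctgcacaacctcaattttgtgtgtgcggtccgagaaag
Rab32, chr10:10558158-10558457 (minus strand): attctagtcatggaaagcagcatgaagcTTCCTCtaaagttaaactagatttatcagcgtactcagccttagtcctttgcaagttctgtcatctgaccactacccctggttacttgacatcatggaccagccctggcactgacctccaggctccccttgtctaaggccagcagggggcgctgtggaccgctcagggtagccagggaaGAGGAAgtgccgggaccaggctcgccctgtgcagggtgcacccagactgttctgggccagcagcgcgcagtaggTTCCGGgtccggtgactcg
Rab43, chr6:87812115-87812414 (minus strand): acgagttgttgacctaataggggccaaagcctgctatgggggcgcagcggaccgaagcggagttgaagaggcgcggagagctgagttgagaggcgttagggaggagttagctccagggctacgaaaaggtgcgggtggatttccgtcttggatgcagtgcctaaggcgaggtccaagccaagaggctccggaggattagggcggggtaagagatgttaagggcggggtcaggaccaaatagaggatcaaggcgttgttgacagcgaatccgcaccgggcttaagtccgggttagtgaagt
The Rab32 window held GAGGAA at bases 29 to 34 and 208 to 213, the first on the opposite strand, and CCGGAA at bases 282 to 287 on the opposite strand. The Rab29 window held TTGCNNAA at bases 77 to 84. None of the 4 motifs was found in the windows shown for Rab15 and Rab43, but another window of Rab15 held the PU.1 motif, and other windows of Rab43 held those of GATA factors, PU.1 and C/EBP. Over all Rab windows, GAGGAA was in 18.3% against 28.3% of 32851 windows of all genes, TTGCNNAA in 6.67% against 10.8%, AGATAA in 3.33% against 11.2% and CCGGAA in 25% against 14.9%. The Rab windows had a median of 19.5 CG dinucleotides against 7 over all windows, so base composition differs between the sets. A match says only that these letters are in the window.

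Granule and lysosome-related Rab genes held the widest range. Rab44, a large Rab with a calcium-binding EF hand found in immune cells, had log2 levels of 9.20, 10.03 and 9.68 in T2M. On the eosinophil-labelled arrays it read 9.82 and 10.04, on the neutrophil-labelled arrays 8.67 and 7.22, and on the macrophage-labelled arrays 4.51 and 3.63. The macrophage-labelled arrays stood apart from all other arrays, the lowest of which was 7.22. Against those arrays Rab44 was higher by 5.57 ± 0.47 (SE) in T2M (limma adjusted p = 4.24e-04), by 5.86 ± 0.51 on the eosinophil-labelled arrays (adjusted p = 3.87e-04) and by 3.88 ± 0.51 on the neutrophil-labelled arrays (adjusted p = 0.00788). The macrophage-labelled readings lay below the medians of their arrays over all probe sets (5.91 and 5.90), so no fold is given. The calls of T2M and the eosinophil label against the macrophage label held without any 1 array.

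Rab27a and Rab27b, paralogs that dock secretory granules and lysosome-related organelles, were ordered differently over the labels. Rab27a read 8.52, 7.22 and 8.84 in T2M, 8.65 and 9.43 on the eosinophil-labelled arrays, 6.72 and 6.33 on the neutrophil-labelled arrays and 7.77 and 7.29 on the macrophage-labelled arrays. On this probe set its lowest readings were the neutrophil-labelled ones, which overlapped with no other label, and it was called only between the eosinophil and neutrophil labels, by 2.52 ± 0.53 (adjusted p = 0.0263). Its other 3 probe sets gave 1.48, 1.34 and 1.64 in that comparison, of which the last was called, and in 2 of them the neutrophil-labelled range overlapped with that of another label. Rab27b read 6.78, 5.36 and 6.59 in T2M, 5.92 and 4.73 on the eosinophil-labelled arrays, 6.37 and 3.80 on the neutrophil-labelled arrays and 3.34 and 3.78 on the macrophage-labelled arrays. Its call was in T2M over the macrophage label, by 2.68 ± 0.75 (adjusted p = 0.0446). Both macrophage-labelled readings and that of T2M replicate 2 lay below the medians of their arrays, so this size rests on dim readings. The other 3 Rab27b probe sets gave 1.35, 0.95 and -0.07 in that comparison, none of them called.

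Rab32 and Rab38 are close paralogs that deliver cargo to melanosomes and other lysosome-related organelles. Rab32 read 8.67, 7.70 and 7.65 in T2M, 10.12 and 10.31 on the eosinophil-labelled arrays, 8.71 and 8.67 on the neutrophil-labelled arrays and 9.40 and 9.24 on the macrophage-labelled arrays. The eosinophil-labelled arrays were the highest and all 3 T2M arrays were below both macrophage-labelled ones. Rab38 read 5.70, 4.93 and 4.93 in T2M, 4.71 and 5.14 on the eosinophil-labelled arrays, 5.27 and 6.17 on the neutrophil-labelled arrays and 6.93 and 6.59 on the macrophage-labelled arrays, which were highest without overlap. Rab32 was lower in T2M than in the eosinophil label, at -2.21 ± 0.33 (adjusted p = 0.0101), and in the same comparison its paralog Rab38 differed by 0.26 ± 0.36 (adjusted p = 0.838). Against the macrophage label T2M was lower for both, at -1.31 for Rab32 (adjusted p = 0.0300) and -1.58 for Rab38 (adjusted p = 0.0232). All T2M and eosinophil-labelled readings of Rab38 lay below the medians of their arrays, so its sizes rest on dim readings.

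Rab37, which acts in secretion from granules of mast cells and other leukocytes, read 7.26, 7.09 and 6.90 in T2M, 8.22 and 7.43 on the eosinophil-labelled arrays, 5.73 and 5.75 on the neutrophil-labelled arrays and 6.57 and 6.42 on the macrophage-labelled arrays. These 4 ranges did not overlap on this probe set, but on its second probe set they did. There it read 5.83, 7.13 and 6.67 in T2M and 6.36 and 7.98 on the eosinophil-labelled arrays. The neutrophil-labelled arrays read 6.64 and 5.00 and the macrophage-labelled arrays 6.96 and 6.40. The neutrophil-labelled arrays were lower than T2M by 1.34 ± 0.27 on the log2 scale (adjusted p = 0.0445) and lower than the eosinophil-labelled arrays by 2.09 ± 0.30 (adjusted p = 0.00633). The first of these calls was lost when any of 7 arrays was left out, and the second was kept without any 1 array. Both were lost with the probe set of largest SD and when only the groups compared were fitted. The exocytic Rab3 genes were not called in any comparison. Among them Rab3a was highest on the macrophage-labelled arrays (6.16 and 6.13 against 5.33 to 6.01 elsewhere), while Rab3b and Rab3c were lowest there, and none of these differences passed the test.

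In the recycling and early endosome group, Rab15 was called in the most comparisons. Rab15, which acts between early and recycling endosomes, read 7.40, 7.42 and 7.67 in T2M, 9.78 and 10.64 on the eosinophil-labelled arrays, 7.59 and 6.94 on the neutrophil-labelled arrays and 6.44 and 6.36 on the macrophage-labelled arrays. The eosinophil-labelled arrays were highest and the macrophage-labelled arrays lowest, both without overlap. Its difference was called in 4 of the 6 comparisons: T2M minus the eosinophil label was -2.71 ± 0.31 (adjusted p = 0.00467), T2M minus the macrophage label 1.10 ± 0.31 (adjusted p = 0.0471), and the eosinophil label exceeded the neutrophil label by 2.94 ± 0.34 (adjusted p = 0.00319) and the macrophage label by 3.81 ± 0.34 (adjusted p = 4.45e-04). The largest of these is a fold of 14.1. On the same arrays the neutrophil markers Camp, Ltf and Lcn2 were highest, and their part in this difference was not tested.

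Rab20, a hypoxia-responsive Rab of phagosomes and endosomes, varied widely between replicates. It read 7.00, 9.39 and 9.19 in T2M, 9.61 and 10.84 on the eosinophil-labelled arrays, 8.91 and 10.29 on the neutrophil-labelled arrays and 6.25 and 5.96 on the macrophage-labelled arrays. The macrophage-labelled arrays were lowest without overlap, and the eosinophil label exceeded them by 4.12 ± 0.82 (adjusted p = 0.0120). The differences of 2.42 ± 0.75 for T2M (adjusted p = 0.0597) and 3.49 ± 0.82 for the neutrophil label (adjusted p = 0.0787) did not pass the test.

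Several Rab genes of endocytosis were lowest in T2M. Rab35, which recycles receptors from endosomes to the surface, read 8.21, 8.17 and 7.87 in T2M and 8.63 to 9.77 on the other 6 arrays, and was lower in T2M than in the macrophage label by -1.45 ± 0.28 (adjusted p = 0.0122). Rab5b, one of the 3 Rab5 isoforms that drive fusion of early endosomes, read 8.22, 7.31 and 7.30 in T2M and 8.28 to 9.13 elsewhere, with a difference of -1.50 ± 0.37 against the macrophage label (adjusted p = 0.0290). Rab31, which moves cargo between the trans-Golgi network and endosomes, read 9.06, 7.98 and 9.35 in T2M and 9.55 to 10.15 elsewhere, with a difference of -1.34 ± 0.38 (adjusted p = 0.0470). In each of these 3 genes every T2M array lay below every array of the other labels on the probe set used. On the second probe set of Rab31, T2M replicate 1 read 9.37, so that T2M overlapped with every other label. On that of Rab5b, T2M replicate 3 read 6.35, above the neutrophil-labelled arrays at 6.15 and 5.95. The Rab31 call was lost with the mean of all probe sets. The 2 other Rab5 isoforms were not called. Rab5c read 7.81, 8.32 and 7.98 in T2M against 8.73 to 9.31 elsewhere, and Rab5a overlapped, reading 9.25, 7.78 and 7.59 against 8.23 to 9.80.

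With Rab43 and Rab8a these made 6 Rab genes that were lowest on all 3 T2M arrays, 10.2% of the Rab genes against 2.51% of all genes. This count is sensitive to scaling: it was 5 with arrays shifted to a common median and 2 (Rab35 and Rab43) after quantile normalization, when 2.36% of all genes did so. Without the arrays with a large actin difference it was 17, against 7.83% of all genes. Rab4a, of fast recycling, was the only Rab gene highest on all 3 T2M arrays, 1.69% against 3.39% of all genes (7.63, 5.97 and 7.01 against 4.38 to 5.80), and its differences were not called. Its probe set is of a type that may also bind related transcripts. After quantile normalization Rab2b and Rab40c were highest in T2M as well, 5.08% against 3.83%. In the other direction 10 Rab genes were highest on both eosinophil-labelled arrays, 16.9% against 7.15%: Rab11a, Rab11b, Rab15, Rab21, Rab32, Rab37, Rab6a, Rab7, Rab8b (on the brighter of its probe sets) and the dim Rab9b. That count was 13 with a common median (22.0% against 9.57%) and 9 after quantile normalization (15.3% against 7.73%). With the mean of all probe sets it was 8 (13.6% against 7.93%), and with the probe set of largest SD 6 (10.2% against 7.22%). The macrophage-labelled arrays were highest for 11 (18.6% against 13.3%) and lowest for 13 (22.0% against 24.0%), where the share of the lowest was below that of all genes. Lowest on both eosinophil-labelled arrays were Rab12, Rab29 and the dim Rab39 (5.08% against 7.44%). The neutrophil-labelled arrays were highest for Rab12 and Rab7b (3.39% against 3.11%) and lowest for Rab11b, Rab27a and Rab37 (5.08% against 1.86%). Lowest there were 4 after quantile normalization (6.78% against 3.03%) and 2 with the mean of all probe sets (3.39% against 1.85%). With the probe set of largest SD only Rab27a remained (1.69% against 1.82%).

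Rab8a and Rab8b, which carry vesicles to the surface and recycle receptors, show how far a call can rest on the probe set. For Rab8a the probe set used read 8.19, 9.08 and 8.66 in T2M and 10.30 and 10.19 on the macrophage-labelled arrays, a difference of -1.60 ± 0.41 (adjusted p = 0.0337), while its other 2 probe sets gave 0.20 and 0.07, neither called. For Rab8b the probe set used read 12.24 and 12.30 on the eosinophil-labelled arrays and 10.62 and 10.80 on the macrophage-labelled ones, a difference of 1.56 ± 0.31 (adjusted p = 0.0112). Its second, dimmer probe set read 6.02 and 6.22 against 8.60 and 8.57, a difference of -2.46 ± 0.61 that was called the other way (adjusted p = 0.0311 over all probe sets with 1 symbol). The direction for Rab8b thus depends on the probe set, and counts that include it rest on the brighter one.

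In the endoplasmic reticulum and Golgi group, Rab43 and Rab36 set the macrophage label apart. Rab43, which acts in the Golgi and in antigen cross-presentation by dendritic cells, read 7.48, 7.40 and 7.24 in T2M, 8.35 and 7.69 on the eosinophil-labelled arrays, 8.61 and 9.32 on the neutrophil-labelled arrays and 10.54 and 10.15 on the macrophage-labelled arrays. On this probe set the 4 ranges stood in this order without overlap. On another, T2M read 6.88, 6.39 and 6.88, which overlapped with the eosinophil-labelled arrays at 6.97 and 6.65. T2M was lower than the macrophage label by -2.97 ± 0.31 (adjusted p = 0.00104), a fold of 7.85, and lower than the neutrophil label by -1.59 ± 0.31 (adjusted p = 0.0376). The eosinophil label was lower than the macrophage label by -2.33 ± 0.33 (adjusted p = 0.00296). The other 2 Rab43 probe sets were called the same way for T2M against the macrophage label, at -3.71 and -1.67. Neither was called for T2M against the neutrophil label. On the same arrays the 6 dendritic cell markers summed to 54.3 to 56.1, against 39.3 to 42.4 in T2M, 36.5 on both eosinophil-labelled arrays and 41.5 to 45.7 on the neutrophil-labelled arrays, and their part in this difference was not tested.

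Rab36, a Rab of the Golgi, read 7.05 and 7.07 on the macrophage-labelled arrays and 4.47 to 5.64 on the other 7, where it lay below the array medians. Rab36 was lower than in the macrophage label at -2.32 in T2M and -2.40 in the eosinophil label (adjusted p = 0.00466 and 0.00455). In the neutrophil label the difference was -2.005 (adjusted p = 0.0363). These sizes rest on dim readings. On its other probe sets the macrophage-labelled arrays read 5.74 and 5.28, and 5.51 and 5.64, below their array medians. The other arrays read 4.67 to 4.90 and 4.39 to 4.83, so the macrophage label was again highest, by less. Rab6a, the main Rab of retrograde traffic at the Golgi, read 8.43, 8.39 and 8.42 in T2M, 9.61 and 9.35 on the eosinophil-labelled arrays, 8.82 and 8.94 on the neutrophil-labelled arrays and 8.38 and 8.54 on the macrophage-labelled arrays. The eosinophil-labelled arrays were highest, and T2M was lower than they were by -1.07 ± 0.20 (adjusted p = 0.0252). The paralog Rab6b was lowest on the macrophage-labelled arrays (5.22 and 5.49 against 5.51 to 6.11) and was not called. The housekeeping secretory genes Rab1a, Rab2a and Rab10 read at least 9.72 on every array, and none of them was called.

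Among the late endosome and lysosome genes, Rab29 (also known as Rab7l1), a partner of the kinase LRRK2, read 7.07, 7.18 and 7.19 in T2M, 6.87 and 6.94 on the eosinophil-labelled arrays, 7.85 and 8.53 on the neutrophil-labelled arrays and 9.20 and 9.23 on the macrophage-labelled arrays. The 4 ranges did not overlap. Rab29 was lower than in the macrophage label by -2.07 ± 0.24 in T2M (adjusted p = 0.0018) and by -2.32 ± 0.27 in the eosinophil label (adjusted p = 0.00126), and lower in the eosinophil than in the neutrophil label by -1.29 ± 0.27 (adjusted p = 0.0251). Both calls against the macrophage label held without any 1 array. The T2M minus neutrophil difference of -1.04 ± 0.24 was not called (adjusted p = 0.0675). Lrrk2 had means of 7.84 in T2M, 7.94, 6.64 and 8.52 on the eosinophil-, neutrophil- and macrophage-labelled arrays, with no call.

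Rab7, which matures late endosomes and phagosomes, was even across T2M at 10.999, 10.996 and 10.987. It read 11.86 and 12.56 on the eosinophil-labelled arrays, 11.24 and 11.39 on the neutrophil-labelled arrays and 10.95 and 11.09 on the macrophage-labelled arrays. The eosinophil-labelled arrays were highest, with T2M lower by -1.22 ± 0.25 (adjusted p = 0.0342), and its second probe set was called the same way at -1.41. Rab7b, which returns receptors from late endosomes to the Golgi, was instead highest on the neutrophil-labelled arrays. It read 8.97 and 9.46 there, 8.37, 8.06 and 7.78 in T2M, 7.75 and 7.18 on the eosinophil-labelled arrays and 7.35 and 7.25 on the macrophage-labelled arrays. The eosinophil minus neutrophil difference was -1.75 (adjusted p = 0.0145), and the neutrophil label exceeded the macrophage label by 1.91 (adjusted p = 0.0192).

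Rab12, which routes receptors from recycling endosomes to lysosomes, read 7.01 and 7.11 on the eosinophil-labelled arrays and 7.88 to 8.71 on the other 7. The eosinophil label was lower than the neutrophil label by -1.36 ± 0.26 (adjusted p = 0.0188) and lower than the macrophage label by -0.89 ± 0.26 (adjusted p = 0.0496). Rab24, of autophagy, read 7.17, 8.13 and 7.89 in T2M and 9.39 and 9.36 on the macrophage-labelled arrays, a difference of -1.65 ± 0.41 (adjusted p = 0.0313), from a probe set of a type that may also bind related transcripts. Rab39, of phagosome maturation, was dim throughout at 2.33 to 4.73, below the array median on all 9 arrays. It was called lower on the eosinophil-labelled than on the macrophage-labelled arrays (adjusted p = 0.0101), but no size is given for readings this dim. Its paralog Rab39b was not called.

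**Figure D2:**
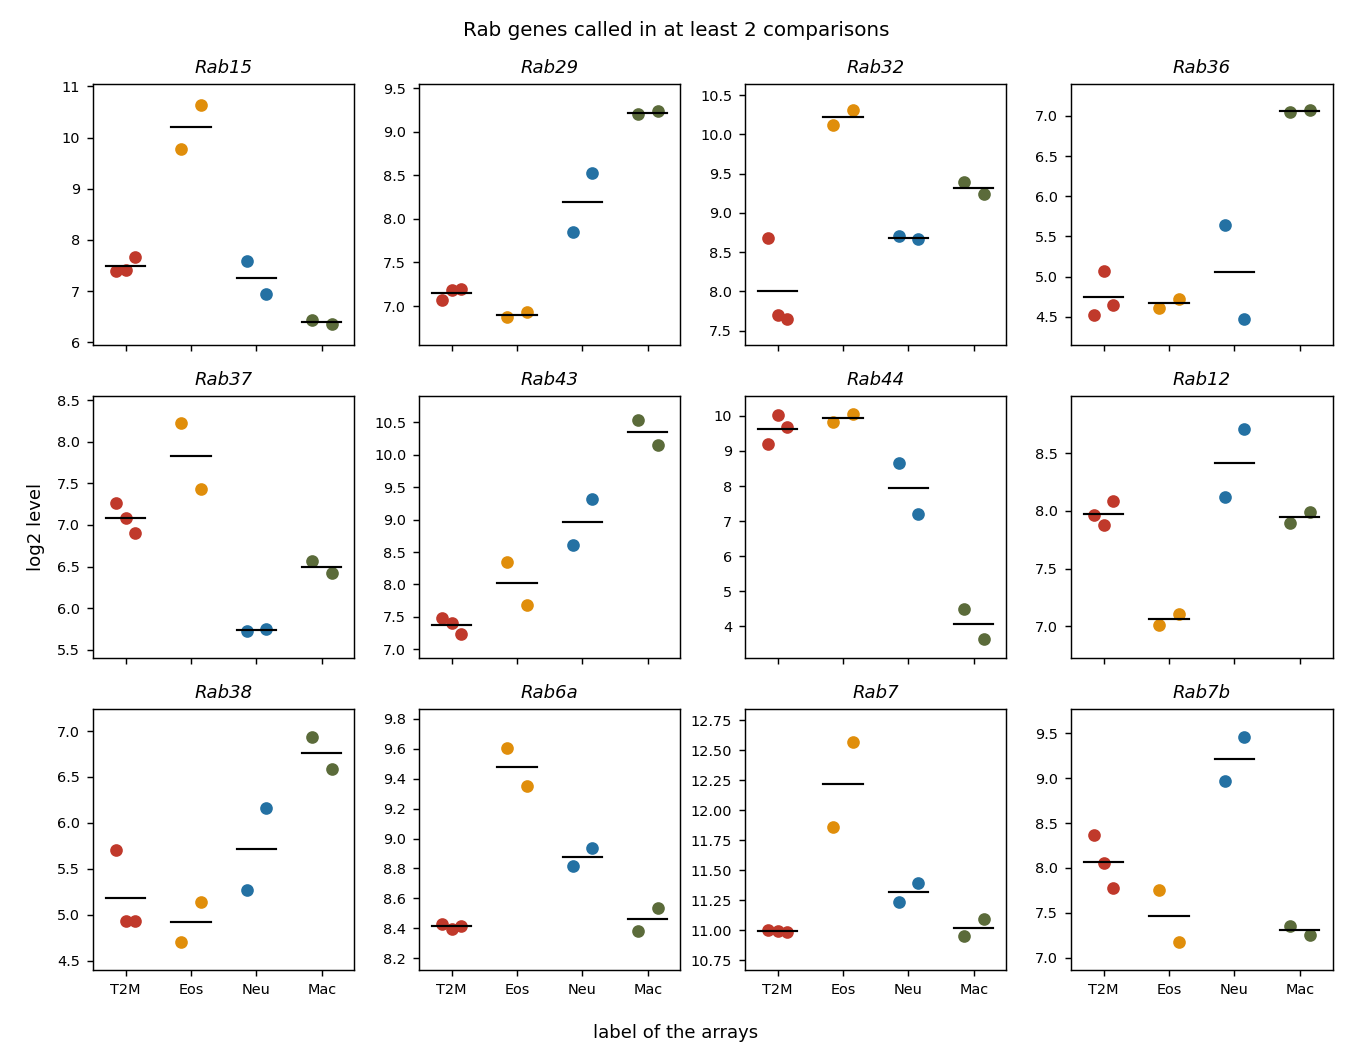
Log2 level of the 12 Rab genes called in at least 2 comparisons, 1 panel a gene with its own vertical axis, not starting at 0; each point is an array, bars are label means (T2M 3 arrays, the other labels 2 each). Rab44 lies between 9.20 and 10.04 in T2M and the eosinophil label and at 4.51 and 3.63 in the macrophage label, and Rab15 reaches 9.78 and 10.64 in the eosinophil label, against at most 7.67 elsewhere.

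The series sets T2M against 3 other CD11b+ populations from lungs of IL-25-treated mice. T2M against the eosinophil label gave 4 called Rab genes, all lower in T2M (Rab15, Rab32, Rab6a and Rab7), which is 6.78% against 4.46% of all genes, or 9.52% against 6.89% among genes with a mean of at least log2 6. The table as a whole had 2.89% lower and 1.57% higher calls. The median difference of the 59 was -0.26, against 0.06 over all genes, and 36 of 59 were below 0. Without eosinophil-labelled replicate 2 the count was 1 (Rab15), and it was 2 without T2M replicate 2 or 3 or either macrophage-labelled array, and 2 with the macrophage-labelled arrays averaged. After quantile normalization 1 was higher and 2 were lower. Among the largest differences that were not called were 1.79 ± 0.55 for Rab4a and -1.70 ± 0.75 for Rab20.

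T2M against the neutrophil label gave 2 called Rab genes, Rab37 higher and Rab43 lower, 3.39% against 2.82% of all genes, of which 1.25% were higher and 1.57% lower. Among genes with a mean of at least log2 6 the shares were 4.76% and 4.44%. The count was 0 without T2M replicate 1 or 3 or without either macrophage-labelled array, 1 without T2M replicate 2 and 4 without neutrophil-labelled replicate 1. It was also 0 with the macrophage-labelled arrays averaged. The largest differences not called were -1.80 ± 0.56 for Rab19, a Golgi Rab, 1.69 ± 0.47 for Rab44 and 1.67 ± 0.48 for Rab27a. The medians were -0.20 over the Rab genes and -0.03 over all genes.

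T2M against the macrophage label gave 13 called Rab genes, 22.0% against 17.2% of all genes. Among genes with a mean of at least log2 6 the shares were equal, 23.8% and 23.8%. The 3 higher in T2M were Rab15, Rab27b and Rab44, and the 10 lower were Rab24, Rab29, Rab31, Rab32, Rab35, Rab36, Rab38, Rab43, Rab5b and Rab8a. Lower calls made up 16.9% of the Rab genes and 10.6% of all genes, and higher calls 5.08% and 6.53%. After quantile normalization the split was 3 higher and 5 lower, where the share of lower calls among all called genes went from 62.0% to 51.7%. The count was 3 without either macrophage-labelled array or with both averaged, and 7 without T2M replicate 3. Rab29, Rab43 and Rab44 were called without any 1 array.

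The eosinophil against the macrophage label gave 13 calls as well, 22.0% against 17.4%, or 23.8% against 26.1% among genes with a mean of at least log2 6. Besides Rab8b, the higher genes were Rab15, Rab20, Rab37, Rab44, Rab6a and Rab7, and the lower genes Rab12, Rab29, Rab36, Rab38, Rab39 and Rab43. With Rab8b counted by its brighter probe set, higher calls made up 11.9% of the Rab genes and 5.89% of all genes, and lower calls 10.2% and 11.5%. Of these 13 genes 8 had other probe sets, and Rab8b was the only one with a probe set called in the opposite direction. Without either macrophage-labelled array, or with them averaged, the count was 5. The eosinophil against the neutrophil label gave 7 calls, 11.9% against 7.88%, of which Rab15, Rab27a, Rab32 and Rab37 were higher and Rab12, Rab29 and Rab7b lower. The shares were 6.78% against 3.55% of all genes for higher calls, 5.08% against 4.33% for lower calls, and 16.7% against 12.9% among genes with a mean of at least log2 6. The count for these 2 labels was 3 without eosinophil-labelled replicate 1 or either macrophage-labelled array, 2 without eosinophil-labelled replicate 2 and 3 with the macrophage-labelled arrays averaged. The neutrophil against the macrophage label gave 3 calls, 5.08% against 2.26%: Rab44 and Rab7b higher (3.39% against 1.13%) and Rab36 lower (1.69% against 1.13%). Among genes with a mean of at least log2 6 the shares were 4.76% and 3.30%. The neutrophil against the macrophage label gave 1 without macrophage-labelled replicate 1, 0 without replicate 2, 0 with them averaged and 10 without neutrophil-labelled replicate 2. The comparisons share arrays, so their lists are not independent of each other.

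**Figure D3:**
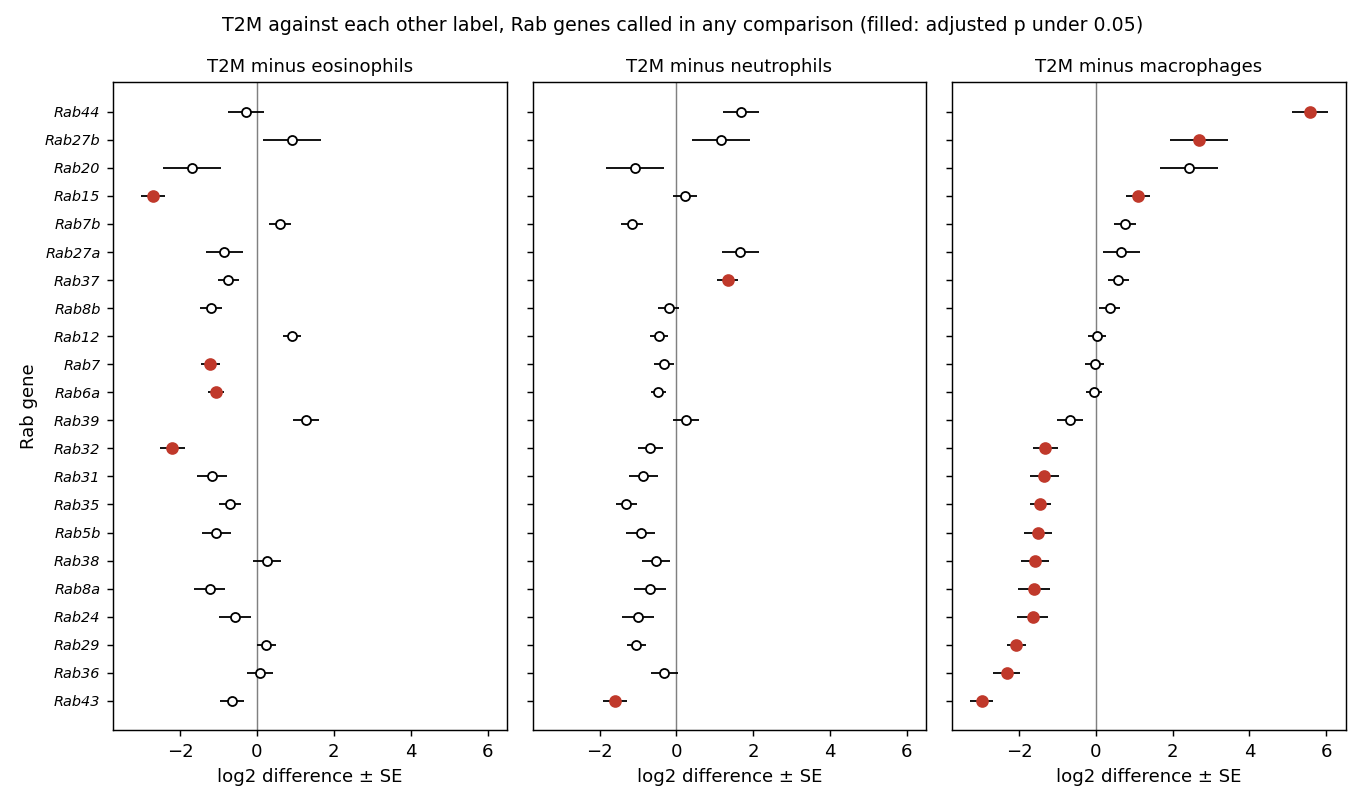
Log2 difference of T2M minus each other label (points, with limma SE bars) for the 22 Rab genes called in at least 1 of the 6 comparisons; filled points passed an adjusted p under 0.05 in the comparison shown. The 4 filled points lie below 0 against the eosinophil label, and the widest spread, from -2.97 for Rab43 to 5.57 for Rab44, is against the macrophage label.

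**Figure D4:**
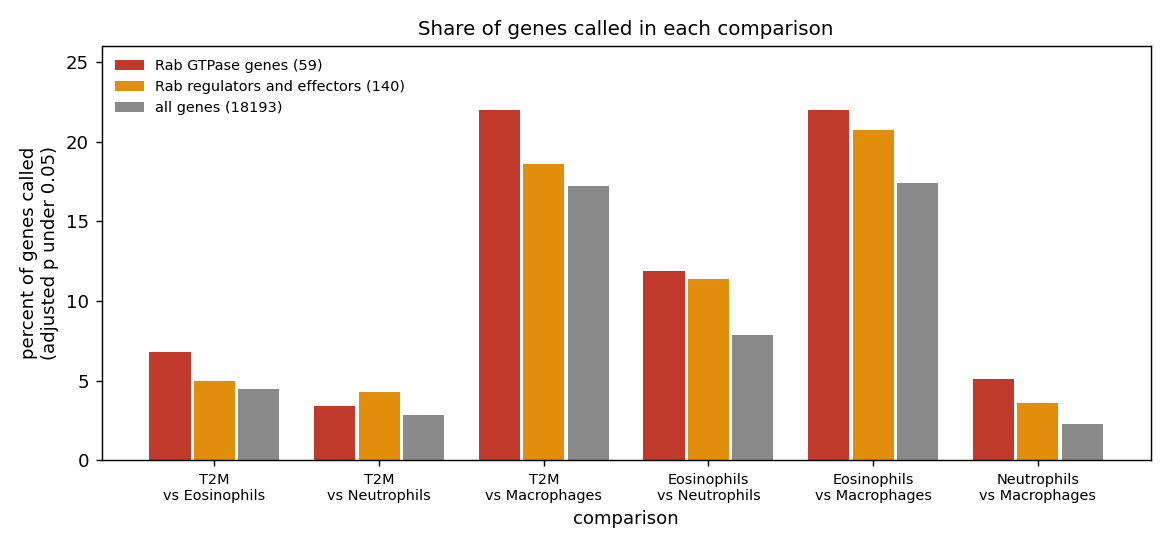
Percent of genes called at an adjusted p under 0.05 (vertical axis, from 0) in each of the 6 comparisons, for the 59 Rab genes, the 140 Rab regulators and effectors and all 18193 genes. The Rab share is above that of all genes in each comparison, from 3.39% against 2.82% to 22.0% against 17.2%. This does not hold among genes with a mean of at least log2 6, which are not shown. There the shares were equal for T2M against the macrophage label (23.8% and 23.8%). For the eosinophil against the macrophage label the Rab share was the lower (23.8% against 26.1%).

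Genes that load, control and read Rab proteins were counted from 4 lists, of which 140 members were measured: 11 of delivery and prenylation, 42 GEFs, 39 GAPs and 48 effectors. At least 1 comparison called 48 of the 140 and none called the other 92, against 4879 of all 18193 genes called (26.8%). Among all genes with a mean of at least log2 6 that share was 38.5%. Against the eosinophil label T2M had 6 higher and 1 lower (5.00% against 4.46% of all genes), against the neutrophil label 3 higher and 3 lower (4.29% against 2.82%) and against the macrophage label 10 higher and 16 lower (18.6% against 17.2%). The eosinophil against the macrophage label gave 6 higher and 23 lower (20.7% against 17.4%), and against the neutrophil label 8 and 8 (11.4% against 7.88%). The neutrophil against the macrophage label gave 2 higher and 3 lower (3.57% against 2.26%). These shares lie near the background. Without either macrophage-labelled array the T2M against macrophage count was 5 or 8 instead of 26, and it was 40 without either neutrophil-labelled array.

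Among the GEFs, Dennd4a, which activates Rab10, read 11.06, 11.27 and 11.58 in T2M, 11.17 and 10.61 on the eosinophil-labelled arrays, 8.25 and 9.15 on the neutrophil-labelled arrays and 7.35 on both macrophage-labelled arrays. T2M exceeded the macrophage label by 3.95 ± 0.33 (adjusted p = 3.85e-04) and the neutrophil label by 2.61 ± 0.33 (adjusted p = 0.0108). Rabgef1 (Rabex-5), the GEF of Rab5, read 10.61, 11.38 and 11.22 in T2M, 12.01 and 11.53 on the eosinophil-labelled arrays, 8.56 and 9.49 on the neutrophil-labelled arrays and 7.71 and 7.63 on the macrophage-labelled arrays. T2M exceeded the macrophage label by 3.40 ± 0.35 (adjusted p = 0.00107). For both GEFs, T2M and the eosinophil label lay above both other labels without overlap, while Rab10 was not called in any comparison and Rab5b was the only Rab5 isoform called. Against the macrophage label 2 GEF genes were higher in T2M and 6 lower, 19.0% of the 42 against 17.2% of all genes, which is near the background. The 6 lower were Trappc5 (-2.37), Trappc3 (-1.67), Ankrd27 (-2.28), Mon1a (-1.98), Madd (-1.93) and Rab3ip (-0.96). All T2M readings of Mon1a and Rab3ip lay below the medians of their arrays, so their sizes rest on dim readings. Ankrd27 (Varp) is the GEF of Rab21 and also binds Rab32 and Rab38, and Mon1a is part of the Rab7 GEF.

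Between the eosinophil and neutrophil labels, 6 GEF genes were higher and 2 lower in the eosinophil label, 19.0% of the GEFs against 7.88% of all genes. The largest differences were Dennd1b (2.91 ± 0.66, adjusted p = 0.0337) and Dennd3 (2.91 ± 0.63, adjusted p = 0.0286), where Dennd3 is the GEF of Rab12. Rab12 itself was lower in the eosinophil label. Rgp1, part of the Rab6a GEF, was higher in T2M than in the eosinophil label by 1.12 ± 0.23 (adjusted p = 0.0351), the reverse of Rab6a.

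Among the GAPs, Tbc1d9 and Tbc1d13 were low in both T2M and the eosinophil label. Tbc1d13, a GAP of Rab35, read 6.67, 6.85 and 6.57 in T2M, 6.51 and 6.22 on the eosinophil-labelled arrays, 7.82 and 7.75 on the neutrophil-labelled arrays and 8.48 and 8.28 on the macrophage-labelled arrays. T2M was below the macrophage label by -1.68 ± 0.21 (adjusted p = 0.00245), as Rab35 itself was. Tbc1d9 was below it by -2.73 ± 0.36 (adjusted p = 0.00297) and Usp6nl, a GAP of Rab5 and Rab43, by -1.93 ± 0.39 (adjusted p = 0.0151). Higher in T2M were Grtp1 (1.60 ± 0.25), Rabgap1l (1.46 ± 0.27) and Tbc1d7 (1.25 ± 0.29). Grtp1 and Tbc1d7 lay below the array medians on both macrophage-labelled arrays, so their sizes rest on dim readings. Rabgap1l was also higher in T2M than in the eosinophil and neutrophil labels, by 1.87 and 2.00, with every T2M array above every other array. Tbc1d10c, a GAP expressed in lymphocytes, was lower on the neutrophil-labelled than on the macrophage-labelled arrays by -3.15 ± 0.48 (adjusted p = 0.0138).

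Among the effectors, Gorasp2 (GRASP55), a Golgi stacking protein that binds Rab2, read 8.30, 7.46 and 7.60 in T2M, 7.46 on both eosinophil-labelled arrays, 10.19 and 10.44 on the neutrophil-labelled arrays and 9.68 and 9.63 on the macrophage-labelled arrays. T2M was lower than the neutrophil label by -2.53 ± 0.28 (adjusted p = 0.00701). Rab11fip1 and Rilpl2, which bind Rab11 and the Rab8 and Rab10 family, were higher in T2M than in the macrophage label by 1.86 ± 0.30 and 1.77 ± 0.33 (adjusted p = 0.00608 and 0.0115). Of the Rab27 effectors in the list, Sytl1 (1.30 ± 0.37) and the dim Mlph were called higher in T2M than in the macrophage label. Both macrophage-labelled readings of Sytl1 lay below the array medians, so its size rests on dim readings. Sytl2, Sytl4, Myrip, Exph5, Rph3al and Unc13d were not called, with Unc13d at -0.94 ± 0.30. Vps41, of the tethering complex that Rab7 and its partners recruit to lysosomes, and Golga4, a golgin, were higher in T2M than in the eosinophil label by 2.604 ± 0.48 and 2.23 ± 0.44 (adjusted p = 0.0221 and 0.0305), where Rab7 was lower in T2M. Eea1, the Rab5 effector of early endosome tethering, was higher in the eosinophil than in the macrophage label by 2.39 ± 0.46 (adjusted p = 0.0100).

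In delivery and prenylation, 4 of 11 genes were lower in T2M than in the macrophage label and none was higher. The share called was 36.4% against 17.2% of all genes. The lower genes were Rabac1 (-3.05 ± 0.79), Chml (-2.07 ± 0.52), Rabif (-0.996 ± 0.21) and Yipf4 (-0.97 ± 0.23). All T2M readings of Chml lay below the medians of their arrays, so its size rests on dim readings. Rabggtb, the catalytic subunit of the enzyme that attaches the lipid anchor to Rab proteins, was lower in the eosinophil than in the macrophage label by -2.56 ± 0.53 (adjusted p = 0.0137).

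**Figure D5:**
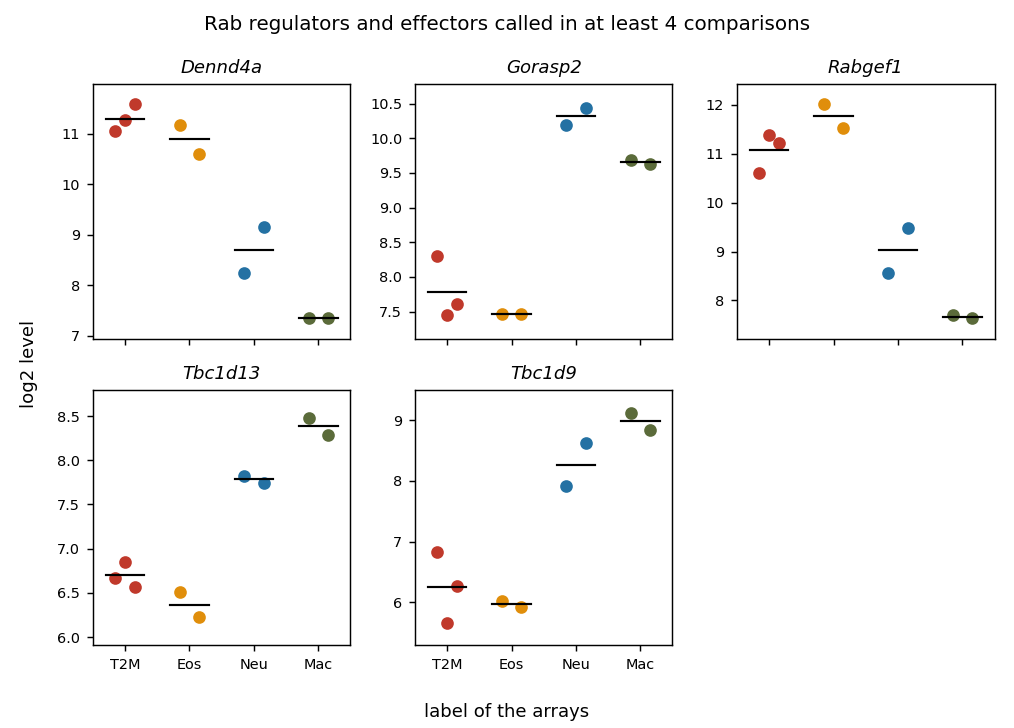
Log2 level of the 5 Rab regulators and effectors called in at least 4 comparisons, 1 panel a gene with its own vertical axis, not starting at 0; each point is an array and each bar a label mean. Dennd4a and Rabgef1 are high in T2M and the eosinophil label, from 10.61 upwards, and Gorasp2, Tbc1d13 and Tbc1d9 are low in both.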

How the data were processed

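The authors deposited a value for every probe set on each array, which was read here as log2 from its range. The submitters' processing notes list affy, limma and RMA; the log base, versions and settings are not given in the sources used here. A difference of 1 was read as 2-fold. Control probe sets (64 of 45101) were left out. Platform annotation named 34945 probe sets with 1 symbol, and the probe set with the highest mean was kept for each of 18193 genes. Values of different probe sets were not compared with each other.

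limma 3.58.1 in R 4.3.3 was fitted to all genes and 9 arrays (4 label means, 6 contrasts, eBayes, two-sided, 5 residual degrees of freedom). Differences are on the log2 scale, first label minus second, with limma's SE. A call is an adjusted p under 0.05, by Benjamini-Hochberg across the whole table. The number of arrays limits the precision: the median SE was 0.308 for T2M contrasts and 0.337 for others. The fit was tested on simulated data with the spread of these genes, for T2M against the macrophage label. It called 6.25% of changes of log2 1, 62.5% of log2 2 and 80% of log2 3. Only 80, 80 and 40 genes were changed by these sizes, while 3123 genes were called in the data. The adjusted p depends on how many genes differ, so these shares are not the detection rates in the data. A gene that was not called may still differ. Named were all called Rab genes, paralogs, genes with no overlap and the largest uncalled differences, and from each regulator list mainly called genes. The members and lists were chosen with earlier results of these data known. Alternatives covered probe set choice, dim genes, scaling, moderation, array weights, the replicate block and left-out arrays. Figures used matplotlib 3.10.9. Protein sequences are not used here.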

Additional observations from a re-analysis of the deposited data

How the results depend on the processing

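With 9 arrays, and labels of 2 or 3, calls depended on the fit more than directions did. Of 42 called differences of Rab genes, 9 stayed called under all 20 alternatives: Rab15 for T2M against the eosinophil label and for the eosinophil against the macrophage label, Rab29, Rab43 and Rab44 for both labels against the macrophage label, and Rab36 for the eosinophil against the macrophage label. Leaving out macrophage-labelled replicate 1 or 2 ended 28 or 29 of the 42 calls, and averaging those arrays ended 29. The direction reversed only for Rab8b (eosinophil against macrophage label), at -0.45 with the mean of all probe sets and -2.46 with the probe set of largest SD. Rab15, Rab29 and Rab44 have 1 probe set each. The alternatives of probe set choice thus left their levels unchanged and could not test their calls. The cause of the changes between alternatives was not tested.

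Counts of called Rab genes are given in the order T2M against the eosinophil (4), neutrophil (2) and macrophage (13) labels, eosinophil against neutrophil (7) and macrophage (13), neutrophil against macrophage (3) and the F-test (17). Array weights gave 8, 0, 35, 2, 27, 3 and 38. Counts under the alternatives, here and for the regulators below, are given without the share of all genes. They are thus not set against the background. Averaging the macrophage-labelled arrays gave 2, 0, 3, 3, 5, 0 and 6. Fitting only the groups compared gave 1, 0, 17, 0, 21 and 0. Trend and robust moderation gave 3, 0, 11, 4, 11, 3 and 15. Quantile normalization gave 8 for T2M against macrophage. The largest-SD probe set gave 1 for T2M against neutrophil, as did leaving out the arrays with a large actin difference. Leaving out 1 array gave ranges of 1 to 6, 0 to 4, 3 to 18, 2 to 9, 5 to 15, 0 to 10 and 6 to 25.

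For regulators and effectors (7, 6, 26, 16, 29 and 5 in the same order), array weights gave 10, 2, 78, 6, 58 and 3. Averaging the macrophage-labelled arrays gave 1, 3, 6, 7, 11 and 0. Fitting only the groups compared gave 2, 0, 39, 1, 51 and 2. Trend and robust moderation gave 4 for T2M against eosinophil and 3 for neutrophil against macrophage. Quantile normalization gave 17 for T2M against macrophage, the largest-SD probe set 4 for T2M against eosinophil, and the mean of probe sets 11 for neutrophil against macrophage. Leaving out 1 array gave ranges of 0 to 10, 2 to 11, 5 to 40, 5 to 18, 10 to 39 and 0 to 25.

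The replicate number as a block (replicate block) gave 2, 0, 6, 5, 11, 2 and 9 called Rab genes and 2, 0, 16, 10, 22 and 2 regulators. Same-numbered samples deviated together only between T2M and the eosinophil label (r = 0.498 and 0.437, against -0.18 to 0.05 for the other 10 pairs). Replicate 1 of those labels also had the large actin difference. Between labels of 2 arrays each, both numbers give the same r by construction, so the 10 pairs are not separate checks. Whether the numbers mark pairs cannot be told from these values. With a common median on every array, the median of all genes went from -0.07 to 0.06 for eosinophil against neutrophil and from 0.18 to 0.30 for eosinophil against macrophage. A filter on dim genes and the common median kept every count within 1.5 times.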
